A study of Mus musculus with 6 samples.

Results

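Cadherins are cell surface proteins that hold neighbouring cells together through calcium-dependent contacts, and the gene set described here covers their whole superfamily on a mouse array: classical cadherins, desmosomal cadherins, the giant Fat and Celsr cadherins, and the protocadherins. Members were the gene probes whose only annotated symbol began with Cdh, Pcdh, Fat, Celsr, Dsc or Dsg followed by the usual gene number or letters. This name rule took 83 probes for 67 genes out of 34967 gene probes. Of these genes, 53 had 1 probe, 12 had 2 and 2 had 3. The rule used names alone.

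The arrays came from neurospheres, floating clusters of neural precursors, grown from the dorsal telencephalon of C57BL/6 mouse embryos at day 12.5 in serum-free medium with bFGF and EGF (20 ng/ml each) and LIF (0.15 ng/ml). In 1 group the cells carried a 2'-O-methyl antisense oligonucleotide against the microRNA miR-335 (anti-miR-335, 3 arrays). In the other they carried a nonsense oligonucleotide of the same chemistry, 2' O Me-EGFP (control, 3 arrays); no untransfected group was analysed here. The comparison asks which transcripts differ between cells given the antisense and the nonsense oligonucleotide. The arrays hold no reading of miR-335 that was used here, so whether and how far it was blocked is not known. The labels call the 3 replicates of each group independent. They do not say what was repeated between them, and p-values therefore reflect only how far these 6 samples vary, which may be technical.

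In the developing cortex, precursors line the ventricle and are tied to each other by adherens junctions, in which N-cadherin (Cdh2) binds catenins that link it to actin. Celsr and Fat cadherins orient cells within the sheet, the pathway known as planar cell polarity. Clustered protocadherins are chosen in different combinations by single neurons and serve recognition between their branches, while the delta protocadherins, scattered over the genome, mark regions and layers and guide axons and cell sorting.

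The groups are defined by an antisense oligonucleotide to miR-335, and the labels do not say which arm of the hairpin it pairs with, so both mature sequences are shown. They were taken from RefSeq (GRCm38.p6, plus strand, chr6:30741314-30741336 for the 5p and chr6:30741354-30741375 for the 3p arm), and the capitals mark the seed, bases 2 to 8.
mmu-miR-335-5p: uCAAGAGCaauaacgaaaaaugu
mmu-miR-335-3p: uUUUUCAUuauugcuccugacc

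Promoter sequences from RefSeq (GRCm38.p6), 250 bases before to 50 after a gene's start, were read for 26 of the 67 genes, giving 29 sequences. None was read for the other genes, among them all clustered protocadherins, all desmosomal cadherins, Cdh2, Pcdh1 and Pcdh12. Many of these were above background, so the CG counts describe the 26 genes only and not the superfamily. The 29 sequences differed in their number of CG dinucleotides (motif CG, the same on both strands). The 14 promoters of 13 genes read above background on at least 3 arrays held a median of 18 CG (2 to 40), and the 15 of the 13 other genes a median of 8 (2 to 26), against 7 over 32851 promoters of all genes. Median GC content was 61.5%, 54.3% and 52.7% in the same order. At least 18 CG, a number chosen after the values were seen, were held by 9 of those 14, 5 of those 15 and 29.7% of all promoters. Celsr2, Celsr3 and Pcdh19, whose probes were above background on all 6 arrays, are set beside Fat2, which was above it on none, and Cdh10, above it on 1 array with 1 of its 2 probes; capitals mark each CG. The counts were 40, 25 and 18 for the first group and 4 and 2 for the other genes.
Celsr2 (chr3:108415530-108415829, minus strand): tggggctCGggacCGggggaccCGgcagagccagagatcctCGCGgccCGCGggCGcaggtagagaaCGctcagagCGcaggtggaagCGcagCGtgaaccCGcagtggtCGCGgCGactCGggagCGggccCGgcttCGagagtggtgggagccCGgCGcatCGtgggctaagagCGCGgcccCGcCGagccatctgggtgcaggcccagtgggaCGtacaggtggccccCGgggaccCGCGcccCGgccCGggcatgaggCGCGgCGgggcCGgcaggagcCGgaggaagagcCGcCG
Celsr3 (chr9:108825795-108826094, plus strand): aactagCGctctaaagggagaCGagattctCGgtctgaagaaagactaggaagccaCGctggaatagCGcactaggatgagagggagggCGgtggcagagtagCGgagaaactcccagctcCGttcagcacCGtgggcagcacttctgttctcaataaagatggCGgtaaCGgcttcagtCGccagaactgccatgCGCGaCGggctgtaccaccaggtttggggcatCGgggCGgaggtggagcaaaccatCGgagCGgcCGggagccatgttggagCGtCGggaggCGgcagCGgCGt
Pcdh19 (chrX:133688944-133689243, minus strand): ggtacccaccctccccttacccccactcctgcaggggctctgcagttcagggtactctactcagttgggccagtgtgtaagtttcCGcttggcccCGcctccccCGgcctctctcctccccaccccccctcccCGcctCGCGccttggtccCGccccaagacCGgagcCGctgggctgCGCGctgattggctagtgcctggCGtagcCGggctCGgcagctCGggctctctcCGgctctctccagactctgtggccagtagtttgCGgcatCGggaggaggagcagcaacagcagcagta
Fat2 (chr11:55312208-55312507, minus strand): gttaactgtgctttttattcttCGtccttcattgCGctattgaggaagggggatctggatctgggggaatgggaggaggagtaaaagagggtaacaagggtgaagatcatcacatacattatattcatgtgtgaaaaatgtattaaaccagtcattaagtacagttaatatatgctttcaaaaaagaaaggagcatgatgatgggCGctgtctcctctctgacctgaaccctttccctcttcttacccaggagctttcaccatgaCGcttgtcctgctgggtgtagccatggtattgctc
Cdh10 (chr15:18820079-18820378, plus strand): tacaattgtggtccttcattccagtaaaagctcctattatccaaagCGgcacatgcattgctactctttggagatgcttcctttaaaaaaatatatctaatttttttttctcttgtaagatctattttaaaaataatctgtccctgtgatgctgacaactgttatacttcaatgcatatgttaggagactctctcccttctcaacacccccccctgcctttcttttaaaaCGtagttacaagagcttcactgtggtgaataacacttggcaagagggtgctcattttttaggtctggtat
The pattern had exceptions on both sides. The listed Fat1 promoter held 2 CG although the Fat1 probe was above background on every array. Whether the listed starts, those of Fat1 and Fat2 included, are the ones used in these cells was not tested. Cdh8, with 21 CG, and Cdh7, with 18 and 19 on 2 of its 3 promoters, were above background on no array, and the Pcdh17 and Pcdh18 promoters held 26 and 23 although these genes were above background on only 2 arrays and 1 array.

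Intensities were scaled so that the median of each array is about 1, and levels are compared between arrays for the same probe and not between probes. Background was taken from the negative control spots of each array, with a limit 3 scaled median absolute deviations (MAD) over their median. The limit was 0.656, 0.630 and 0.645 on control arrays 1 to 3 and 0.692, 0.563 and 0.492 on anti-miR-335 arrays 1 to 3. The same value could thus pass on 1 array and not on another, so counts above background also depend on these limits. Over all gene probes, 59.9% to 67.3% per array exceeded the limit of their array. Of the 83 cadherin and protocadherin probes, 46, 50 and 49 did so on the control arrays (55.4%, 60.2% and 59.0%) and 47, 50 and 55 on the anti-miR-335 arrays (56.6%, 60.2% and 66.3%). The share on each array was a little below that of all gene probes. Counting the brightest probe of each gene, 39 to 43 of 67 genes were above background on the control arrays and 41 to 46 on the anti-miR-335 arrays. Of the 83 probes, 41 (49.4%) were above background on all 6 arrays and 23 (27.7%) on none, where all gene probes gave 51.2% and 26.0%.

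The branches of the superfamily differed in how many members were seen, as the bar plot by subfamily shows. All 3 Celsr probes, 4 of 7 Fat probes, 16 of 24 clustered protocadherin probes and 11 of 15 delta protocadherin probes were above background on all 6 arrays. Only 2 of 6 type I and 2 of 12 type II classical cadherin probes were, and 0 of 6 desmosomal probes. Of the 67 genes, 42 had a probe above background on at least 3 arrays, 9 on 1 or 2 arrays and 16 on none.

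**Figure D1:**
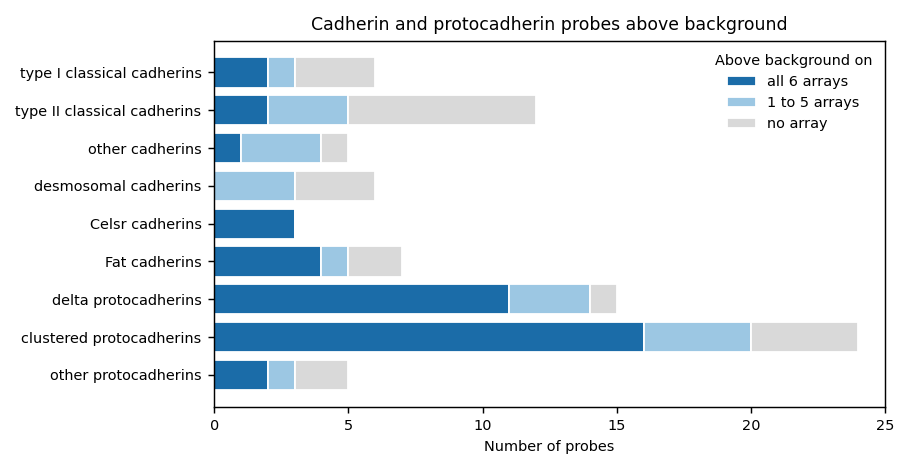
Bars give the number of cadherin and protocadherin probes (x axis) in each subfamily (y axis) that were above background on all 6 arrays, on 1 to 5 arrays, or on none. All 3 Celsr probes and 16 of 24 clustered protocadherin probes were above background on all 6 arrays, and 0 of 6 desmosomal probes were.

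Several cadherins known from other tissues were not above background on any array: Cdh1, the E-cadherin of epithelia, Cdh5, the VE-cadherin of blood vessels, Cdh15, the M-cadherin of muscle, and Cdh16 of the kidney. Others were: the P-cadherin Cdh3 and the intestinal Cdh17 on 2 arrays each, and the vascular Pcdh12 on all 6 with 1 of its 2 probes. Also dim throughout were the type II cadherins Cdh7, Cdh8, Cdh9 and Cdh18, the desmosomal Dsc1 and Dsg3, Fat2, and the protocadherins Pcdh8, Pcdh20, Pcdhb16, Pcdhb18 and Pcdhb19. Values of the 23 probes seen on no array did not exceed 0.647. For such genes the arrays give only a bound, and no fold is given. Lists of cell type markers were read beside them. Of 9 neural precursor genes measured, 8 were above background on at least 3 arrays, and 4 of 6 neuronal genes were. Sums over a list are compared between arrays only: the precursor sum was 294 to 315 in the controls and 318 to 345 in anti-miR-335, and the neuronal sum 12.7 to 16.7 and 15.1 to 19.8. Of the epithelial markers 1 of 5 was above background on at least 3 arrays, of the mesenchymal 1 of 6, of the endothelial 3 of 6 and of the microglial 1 of 3, with summed intensities no higher than 4.30 on any array. The precursor sum was higher on every anti-miR-335 array than on any control array, but without Fabp7, left out after its values were seen (90.1 ± 8.62 in controls, 110 ± 2.59 in anti-miR-335), it was 215, 209.9 and 209.8 in controls and 206, 236 and 213 in anti-miR-335, which overlap. Among the neuronal markers, Dcx of migrating neurons lay at 2.42 ± 0.144 in controls and 4.99 ± 1.18 in anti-miR-335 on its brighter probe, without overlap (log2 difference 1.02 ± 0.18; adjusted p = 0.333 by limma, and 0.0252 without control replicate 1); its second probe was above background on 1 array. All other neuronal probes had overlapping groups. Log2 differences were 0.35 and -0.01 for the probes of Snap25, 0.19 and 0.02 for those of Map2, and 0.18 for the brighter Tubb3 probe. The neuronal sum was not taken again without Dcx. The part of these markers in the differences below was not tested, and in bulk RNA fewer cells of a type and less RNA per cell cannot be told apart.

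No cadherin or protocadherin passed the test between the groups. In limma's fit over 34847 probes, 0 of the 83 had a Benjamini-Hochberg adjusted p under 0.05, and 0 of all probes did (0%), the smallest adjusted p among the members being 0.342. Without correction, 9 of 83 probes (10.8%) had a p under 0.05 with a higher value in the anti-miR-335 arrays, against 4.91% of all probes, and 1 (1.2%) with a lower value, against 4.17%. The values of the 2 groups did not overlap for 7 probes higher in anti-miR-335 (8.43%, against 7.46% of all probes) and 3 lower (3.61%, against 7.25%). These counts include members near background: probe 1 of Fat2, not above it on any array, is among the 7, Pcdh18 among the 3, and probe 1 of Pcdhb4, above background on 1 array, among the 9. The higher share was thus near the background for overlap and above it for uncorrected p. The median log2 difference over the 83 probes was 0.05, with 48 positive, and over all probes 0.01, with 51.9% positive.

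Much of this turned on a single array. The control replicate 1 array had weight 0.366, the lowest of the 6, when limma estimated array weights, and its spike-in control spots had the lowest median, 3.49 against 3.89 to 5.19. For 33 of the 50 member probes above background on at least 3 arrays it lay nearer to the anti-miR-335 mean than to the mean of the other 2 controls, and so did 61.1% of all such gene probes. Without it, 6 member probes (7.23%) passed at an adjusted p under 0.05, all higher in anti-miR-335, against 3.17% of all probes in either direction and 2.27% higher. They were Celsr1 (adjusted p = 0.0208), Pcdhb2 (0.0270), Fat4 (0.0376), Celsr3 (0.0407), Pcdh11x (probe 1, 0.0444) and Pcdhb17 (0.0477), each by limma. Groups then did not overlap for 23 probes higher (27.7%, against 21.1%) and 10 lower (12%, against 14.4%). With any other single array left out instead, 0 members passed. Control replicate 1 was singled out on these same values, partly for lying near anti-miR-335. Adjusted p-values without it, throughout, describe how far results depend on that array and are no independent evidence of a difference. Differences of the members are therefore given below for all 6 arrays and, where they moved by over 1.5 times or changed sign, also without control replicate 1.

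**Figure D2:**
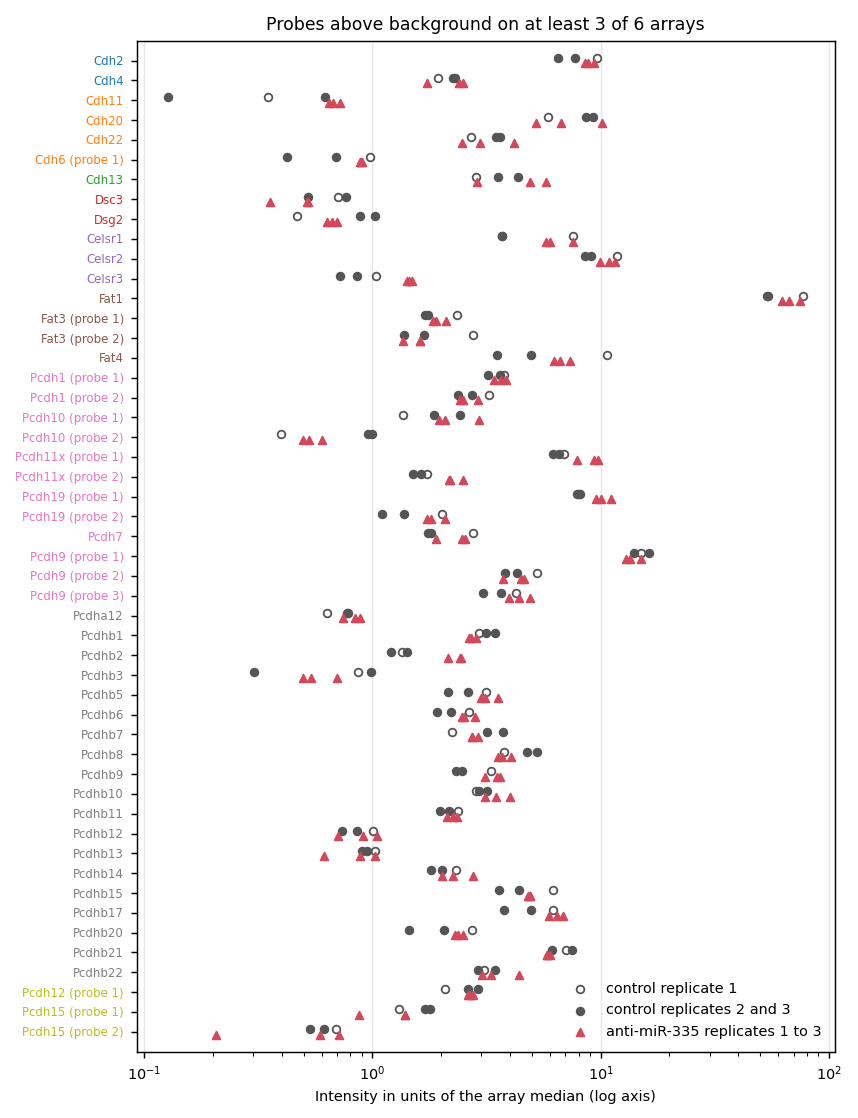
Intensity on each array (x axis, multiples of the array median, log axis) for the 50 cadherin and protocadherin probes above background on at least 3 arrays, 1 row per probe, with label colours by subfamily. Circles are control arrays, open for control replicate 1, and triangles the 3 anti-miR-335 arrays; for Celsr1 and Fat4 the open circle lies at or above the triangles while the filled circles lie below them.

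Among the type I classical cadherins, which form adherens junctions, Cdh2 read 9.63, 7.72 and 6.51 on control arrays 1 to 3 and 8.53, 8.79 and 9.34 on the anti-miR-335 arrays. Control replicate 1 was the highest of the 6 and the other 2 controls the lowest. The means were 7.95 ± 1.57 and 8.88 ± 0.412 (SD, n = 3 each), a log2 difference of 0.18 ± 0.14 (SE; adjusted p = 0.741 by limma), or 0.32 without control replicate 1. Cdh4, the R-cadherin of particular brain regions, read 1.94, 2.26 and 2.29 in controls and 2.49, 2.41 and 1.73 in anti-miR-335, with overlapping groups and a difference of 0.01 ± 0.17 on the log2 scale, or -0.06 without control replicate 1. Cdh3, the P-cadherin, was above background with its first probe on 2 of the controls and in no anti-miR-335 sample (0.619 ± 0.122 against 0.476 ± 0.0396), and its second probe was dim throughout.

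Type II cadherins sort cells into regions and motor pools. Cdh11, known from mesenchyme and brain, was the only member above background on all 3 anti-miR-335 arrays and no control array. It read 0.350, 0.621 and 0.128 in controls and 0.725, 0.673 and 0.643 in anti-miR-335, without overlap but with control replicate 2 just below the lowest anti-miR-335 value. Control replicate 2 (0.621) lay under its own limit of 0.630, and anti-miR-335 replicate 3 (0.643) over a lower limit of 0.492. The latter value would not pass the limits of control replicates 1 and 3 (0.656 and 0.645), so this pattern depends on the limits. With the dim group set at the lowest value above background, the bound on the Cdh11 fold came to 1.06 (adjusted p = 0.527 by limma). That bound takes no account of variation between arrays, so a higher level is not established. Cdh11 also counts among the probes above background on at least 3 arrays only through the anti-miR-335 group. The means were 0.366 ± 0.247, which is not above background, and 0.680 ± 0.0413. Cdh6, which outlines the embryonic cortex, read 0.973, 0.425 and 0.692 against 0.901, 0.887 and 0.884 on the brighter probe (0.43 ± 0.30 on the log2 scale, or 0.72 without control replicate 1), control replicate 1 again being the highest; its second probe was dim. Cdh20 (7.90 ± 1.79 in controls, 7.33 ± 2.5 in anti-miR-335) and Cdh22 (3.27 ± 0.492 and 3.20 ± 0.880) were above background on every array, and their groups overlapped. Their log2 differences were -0.13 and -0.06, or -0.33 and -0.19 without control replicate 1.

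Cdh13, the T-cadherin that is anchored by a lipid and lacks a cytoplasmic tail, read 2.86, 4.33 and 3.56 in controls and 4.90, 5.75 and 2.87 in anti-miR-335. Anti-miR-335 replicate 3 sat with the lowest control, and the difference was 0.29 ± 0.24 on the log2 scale (adjusted p = 0.752 by limma), or 0.14 without control replicate 1. Of the other cadherins in this branch, Cdh17, Cdh23 and Cdh26 were above background on 1 or 2 of the 6 arrays. Cdh23 forms the tip links of inner ear hair cells together with Pcdh15, which did read above background here: Pcdh15 lay at 1.60 ± 0.257 in controls and 1.22 ± 0.299 in anti-miR-335 on its brighter probe, and its 2 probes gave log2 differences of -0.41 ± 0.23 and -0.46 ± 0.43.

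The desmosomal cadherins were near background throughout. Dsc3 lay at 0.664 ± 0.126 in controls and 0.465 ± 0.0955 in anti-miR-335 (log2 difference -0.52 ± 0.29, adjusted p = 0.638 by limma). Its array values were 0.704, 0.765 and 0.522 against 0.355, 0.523 and 0.517, so that 1 anti-miR-335 array exceeded the lowest control, and only 1 of the 3 anti-miR-335 values was above background. Dsg2 lay at 0.793 ± 0.290 and 0.667 ± 0.0346, a log2 difference of -0.18 ± 0.31, or -0.52 without control replicate 1.

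The Celsr cadherins, seven-pass receptors at the core of planar cell polarity, were all higher in the mean of anti-miR-335. Celsr3, needed for the forebrain's axon tracts, read 1.04, 0.857 and 0.720 in controls and 1.42, 1.5 and 1.45 in anti-miR-335. Every anti-miR-335 value lay above every control value, and control replicate 1 was the nearest control. The means were 0.873 ± 0.161 and 1.45 ± 0.0405 (SD, n = 3 each), a log2 difference of 0.75 ± 0.20 (adjusted p = 0.412 by limma), or 0.89 without control replicate 1. Celsr1, which orients epithelial and hair follicle cells and acts in cortical progenitors, read 7.58, 3.68 and 3.69 in controls and 6.02, 5.78 and 7.55 in anti-miR-335. Control replicate 1 stood at the top of the 6 and the other 2 controls at the bottom, so the difference was 0.45 ± 0.25 with all arrays (adjusted p = 0.629 by limma) and 0.80 without that array. Celsr2, needed for the cilia of ependymal cells, had the same order: 11.8, 8.58 and 9.03 against 9.96, 10.9 and 11.6, a difference of 0.15 ± 0.13, or 0.29 without control replicate 1.

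The Fat cadherins are the giant members of the superfamily. Fat4, the receptor for the ligand cadherin Dchs1, read 10.7, 4.95 and 3.50 in controls and 7.31, 6.26 and 6.63 in anti-miR-335. The highest and both lowest values were controls. With all arrays the log2 difference was 0.24 ± 0.31 (adjusted p = 0.859 by limma), and without control replicate 1 it was 0.69. Fat1, which shapes actin at cell contacts, read 76.8, 54.1 and 53.8 against 74.9, 62.6 and 66.7, a difference of 0.16 ± 0.15, or 0.33 without that array. Fat3, known for shaping neurons of the retina, differed by 0.03 ± 0.17 and -0.29 ± 0.24 on its 2 probes above background on every array, opposite in sign. Without control replicate 1 these were 0.18 and -0.0017. On both of these probes, control replicate 1 was the highest array (2.35 and 2.77). The third Fat3 probe was above background on 1 array. Fat2 of cerebellar granule cells was not above background on any array.

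**Figure D3:**
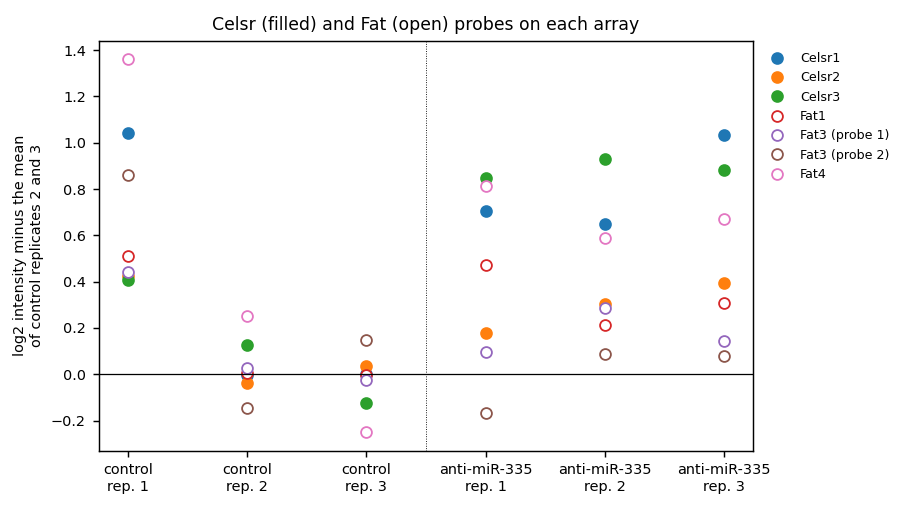
Log2 intensity on each of the 6 arrays (x axis) minus the mean of control replicates 2 and 3 (y axis) for the 7 Celsr and Fat probes above background on every array; filled points are Celsr and open points Fat. On control replicate 1 the median of the 7 was 0.51, and on the anti-miR-335 arrays 0.47, 0.31 and 0.39.

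As that plot shows, the 7 Celsr and Fat probes on control replicate 1 lay 0.51 (median log2) above the mean of the other 2 controls, against 0.47, 0.31 and 0.39 on the anti-miR-335 arrays. Over all gene probes above background on at least 3 arrays, the median on that array was 0.10, and on the anti-miR-335 arrays 0.02, 0.12 and 0.07. Fat4 and Celsr1 were farthest up on control replicate 1, by 1.36 and 1.04.

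Among the delta protocadherins, both probes of Pcdh11x and both of Pcdh19 had a higher mean in anti-miR-335. Pcdh11x, an X-linked delta-1 protocadherin of the brain, read 6.94, 6.21 and 6.55 in controls and 7.89, 9.75 and 9.33 in anti-miR-335 on its first probe. On the second it read 1.74, 1.64 and 1.51 against 2.18, 2.5 and 2.19. Neither probe showed overlap, and control replicate 1 stayed below every anti-miR-335 value on both. The log2 differences were 0.45 ± 0.12 (adjusted p = 0.410 by limma) and 0.49 ± 0.15 (adjusted p = 0.444).

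Pcdh19, also X-linked and known as a gene of female-limited epilepsy, read 8.03, 7.87 and 8.11 in controls and 10.1, 11.1 and 9.58 in anti-miR-335 on its first probe. The 3 controls were close together and all below the anti-miR-335 arrays, a difference of 0.35 ± 0.10 on the log2 scale (adjusted p = 0.418 by limma). The second probe gave 0.36 ± 0.22, but with control replicate 1 (2.01) among the anti-miR-335 values (1.80, 1.73 and 2.07) and the other 2 controls at 1.37 and 1.10; without control replicate 1 it gave 0.60. Probes of a gene share its transcripts and are no replicates of the comparison.

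For Pcdh9, Pcdh10 and Pcdh1, probes of the same gene disagreed in sign. The 3 probes of Pcdh9 gave log2 differences of -0.14 ± 0.11, -0.05 ± 0.15 and 0.29 ± 0.15, or -0.14, 0.08 and 0.41 without control replicate 1. Pcdh10, a delta-2 protocadherin of axon guidance, gave 0.32 ± 0.23 and -0.42 ± 0.36, or 0.11 and -0.86 without that array. Pcdh1 gave 0.05 ± 0.12 and -0.09 ± 0.15, or 0.10 and 0.03. Pcdh7 gave 0.15 ± 0.20, its groups overlapping and its highest value being control replicate 1 (2.76), or 0.36 without it. Pcdh18, a delta-2 member, was the 1 member with an uncorrected p under 0.05 and a lower value, but it exceeded background in 1 control and no anti-miR-335 sample (0.542 ± 0.136 and 0.256 ± 0.0416, without overlap). Pcdh17 lay at 0.489 ± 0.0245 and 0.579 ± 0.104, about the background limit.

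**Figure D4:**
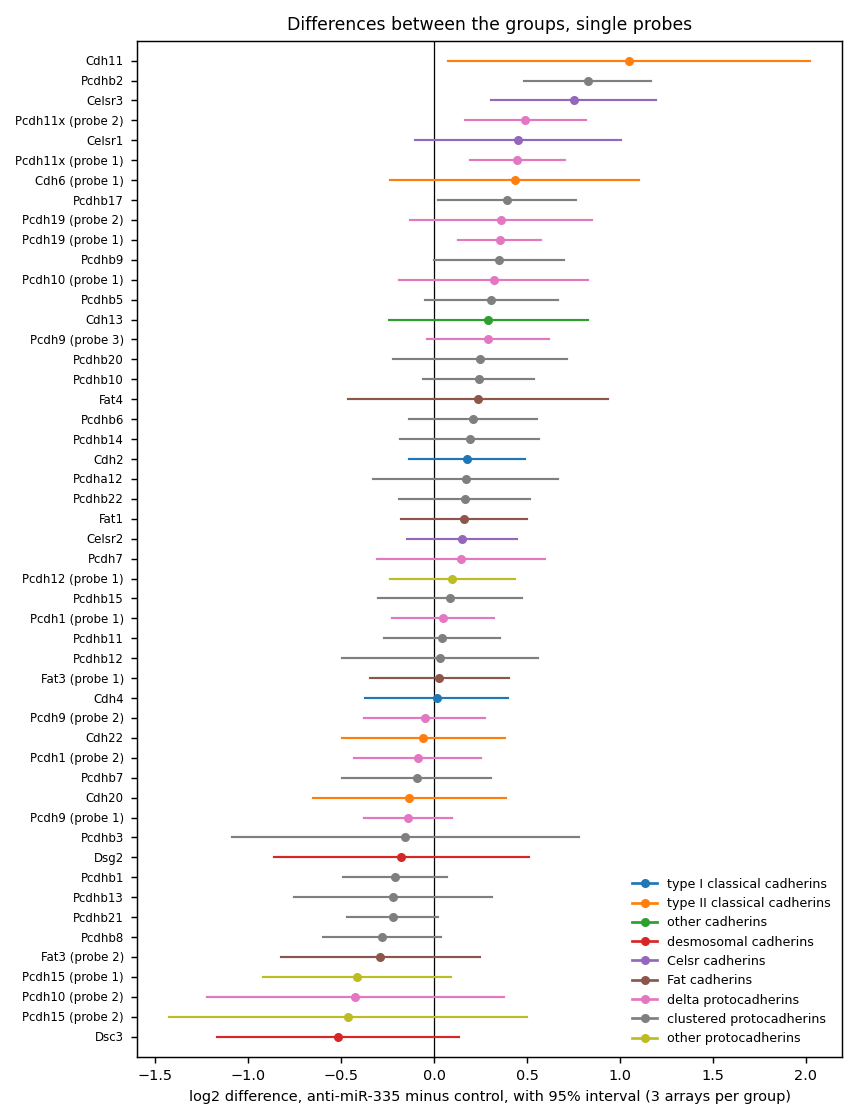
Log2 difference, anti-miR-335 minus control (x axis), with its 95% interval from limma, for the 50 cadherin and protocadherin probes above background on at least 3 arrays (y axis, ordered by difference, coloured by subfamily). Pcdhb2, Celsr3, Pcdh11x (both probes), Pcdh19 (probe 1), Cdh11, Pcdhb17 and Pcdhb9 have intervals above 0 before correction for the number of probes, and none passed after it; no control value of Cdh11 passed background, so its point has only a bound behind it.

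The clustered protocadherins were represented by 22 Pcdhb genes on 23 probes and by Pcdha12; 18 Pcdhb genes were above background on at least 3 arrays. Pcdhb genes lie in a row, and each is a single exon with its own promoter. They are close in sequence, so signal on a probe may include RNA of its neighbours; values of single genes are uncertain for that reason. Pcdhb2 had the smallest p of the 83 member probes. It read 1.34, 1.41 and 1.2 in controls and 2.45, 2.43 and 2.13 in anti-miR-335, so that every anti-miR-335 value was well above every control value, control replicate 1 included. The means were 1.32 ± 0.107 and 2.34 ± 0.177 (SD, n = 3 each), a log2 difference of 0.83 ± 0.15 (adjusted p = 0.342 by limma), and 0.84 without control replicate 1.

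Pcdhb17 read 6.18, 4.97 and 3.76 in controls and 5.97, 6.42 and 6.83 in anti-miR-335, control replicate 1 lying among the latter. Its difference was 0.39 ± 0.17 (adjusted p = 0.529 by limma), or 0.56 without that array. Pcdhb9 lay at 2.70 ± 0.530 in controls and 3.41 ± 0.255 in anti-miR-335, a difference of 0.35 ± 0.16, or 0.51 without control replicate 1 (3.31). In the other direction, Pcdhb21 read 7.05, 7.47 and 6.15 in controls and 5.83, 5.84 and 5.98 in anti-miR-335, without overlap (-0.22 ± 0.11, adjusted p = 0.589 by limma). Pcdhb1 read 2.92, 3.15 and 3.45 against 2.85, 2.65 and 2.71, again without overlap but by a narrow gap (-0.21 ± 0.13). Pcdhb8 lay at 4.61 ± 0.759 in controls and 3.77 ± 0.258 in anti-miR-335 (-0.28 ± 0.14, or -0.41 without control replicate 1), with control replicate 1 (3.78) among the anti-miR-335 values.

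**Figure D5:**
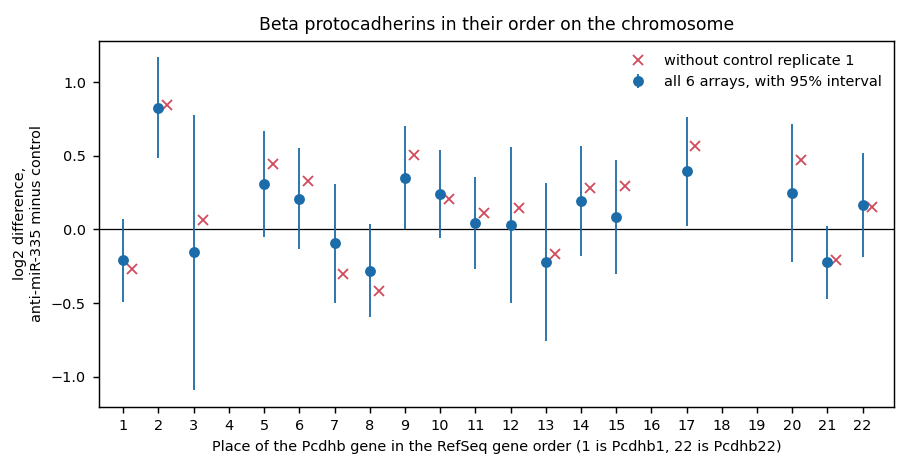
Log2 difference, anti-miR-335 minus control (y axis), for the 18 Pcdhb genes above background on at least 3 arrays, in the order of the genes in RefSeq (x axis). Points are the fit to all 6 arrays with 95% intervals, and crosses the fit without control replicate 1; Pcdhb2 is at 0.83 and its neighbours Pcdhb1 and Pcdhb3 at -0.21 and -0.15.

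Along the row of Pcdhb genes, differences of both signs lay side by side, as the plot in gene order shows. Of the 18 genes 12 were positive, with a median log2 difference of 0.12, where all gene probes above background on at least 3 arrays had 0.03. Pcdhb2, at 0.83, stands between Pcdhb1 (-0.21 ± 0.13) and Pcdhb3 (-0.15 ± 0.42, or 0.07 without control replicate 1), and Pcdhb8 (-0.28 ± 0.14) next to Pcdhb9 (0.35 ± 0.16). The 18 lay 0.23 (median log2) above the other 2 controls on control replicate 1, and 0.22, 0.24 and 0.24 above them on the anti-miR-335 arrays. Pcdha12 was above background on 2 of 3 control and 3 of 3 anti-miR-335 arrays (0.732 ± 0.0857 and 0.823 ± 0.0743). Pcdh12, a vascular protocadherin outside the clusters, lay at 2.53 ± 0.412 and 2.69 ± 0.0680 on its brighter probe.

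Genes that work with cadherins were read from lists of textbook partners, and none of their probes passed over the whole array. The shares to read their uncorrected counts against are the 4.91% higher and 4.17% lower of all probes, with a median log2 difference of 0.01, and counts as small as those below say nothing particular of a list. For catenins and adherens junction proteins (20 genes, 27 probes), 2 probes had an uncorrected p under 0.05 with a higher and 2 with a lower value (4.91% and 4.17% of all probes), and the median log2 difference was 0.08. Ctnnb1, the beta-catenin that binds classical cadherin tails, read 32.0, 22.1 and 17.5 in controls and 27.9, 30.6 and 34.1 in anti-miR-335. Control replicate 1 sat among the anti-miR-335 values; the difference was 0.41 ± 0.19 (adjusted p = 0.563 by limma), and 0.64 without that array (adjusted p = 0.0304). Vcl, the actin linker vinculin, lay at 1.08 ± 0.284 and 1.55 ± 0.0801, and Afdn, which joins nectins to actin, at 43.2 ± 0.953 and 36.1 ± 0.511, both without overlap. The alpha-catenin genes Ctnna1 (0.05 ± 0.24, 1 anti-miR-335 array missing) and Ctnna2 (0.26 ± 0.19 and 0.08 ± 0.22) and the p120 gene Ctnnd1 (0.08 ± 0.30) all had groups that overlapped. Without control replicate 1 these were 0.25, 0.34 and 0.21, and 0.49, and none passed.

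Planar polarity partners of Celsr and Fat (10 genes, 15 probes) gave 2 probes with an uncorrected p under 0.05, both higher (4.91% of all probes were), and a median log2 difference of 0.05. Vangl1, a core polarity membrane protein, read 3.40, 3.18 and 3.0 in controls and 4.03, 4.06 and 4.1 in anti-miR-335 (0.35 ± 0.12 on the log2 scale; 0.20 ± 0.14 on its second probe). The polarity receptor Fzd6 was above background on no control and on all 3 anti-miR-335 arrays (0.463 ± 0.156 and 0.837 ± 0.0469). Without control replicate 1, Dvl2 passed with a higher value (adjusted p = 0.0309) and 1 of the 3 Fzd3 probes with values (the other had none) with a lower one (adjusted p = 0.0378, by limma). Dchs1, the ligand of Fat4, lay at 8.17 ± 0.108 and 7.84 ± 0.842.

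Proteases that cleave cadherins (6 genes, 9 probes) gave 1 probe in each direction at an uncorrected p under 0.05 (4.91% and 4.17% of all probes), with a median of 0.07: Furin, which processes cadherin precursors, at 10.96 ± 0.961 in controls and 8.54 ± 0.220 in anti-miR-335, and Mmp14 at 9.92 ± 1.04 and 12.6 ± 0.847, both without overlap. Adam10, the main sheddase of N-cadherin, passed without control replicate 1 on its dimmest probe alone (adjusted p = 0.0282 by limma), where its other 2 probes gave 0.28 and 0.12 on the log2 scale. Among repressors of E-cadherin (5 genes, 7 probes), Zeb1 lay at 4.08 ± 0.382 and 3.09 ± 0.311 on 1 probe and at 43.9 ± 2.30 and 36.8 ± 4.89 on the other. E-cadherin itself stayed below the background limit in both groups, so no difference can be given for it.

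Proteins that fold the clustered protocadherin locus, among them CTCF and cohesin (8 genes, 13 probes), had 1 probe higher and 2 lower at an uncorrected p under 0.05 (4.91% and 4.17% of all probes), with a median of 0.14. The cohesin gene Rad21 read 17.8, 15.3 and 13.8 in controls and 19.0, 21.7 and 22.4 in anti-miR-335, without overlap (0.43 ± 0.12; adjusted p = 0.418 by limma, and 0.0305 without control replicate 1). Stag2, another cohesin gene, passed without control replicate 1 alone (0.38 with all arrays, 0.78 without; adjusted p = 0.0375 by limma). Nipbl, which loads cohesin, gave -0.35 ± 0.14 and 0.10 ± 0.11 on its 2 probes, and Ctcf lay at 5.65 ± 0.786 and 6.20 ± 0.816. In the list of protocadherin signalling (7 genes, 9 probes), Nckap1, a WAVE complex subunit that protocadherins recruit, gave 0.37 ± 0.14 and -0.10 ± 0.11 on its 2 probes, and the first passed without control replicate 1 (0.51, adjusted p = 0.0419 by limma). The kinase gene Ptk2b gave -0.65 ± 0.27 and -0.02 ± 0.15. Of the cadherin relatives outside the name rule (5 genes, 5 probes), Clstn2, a calsyntenin of synapses, lay at 1.01 ± 0.199 in controls and 0.405 ± 0.116 in anti-miR-335, with no overlap. It exceeded background in 3 controls and 1 anti-miR-335 sample, and its log2 difference was -1.35 ± 0.30 (adjusted p = 0.374 by limma). Ret, from the same list, lay at 0.969 ± 0.341 in controls and 1.30 ± 0.195 in anti-miR-335, with overlap. The log2 difference of Ret was 0.48 ± 0.29, or 0.14 without control replicate 1.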

How the data were processed

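RNA from 6 neurosphere samples was read on single-colour CodeLink mouse arrays; the labels give 2 µg of RNA, an 18 h hybridisation, and a transfection of 24 with no unit. The deposited values are linear intensities that the authors divided by each array's median, per the labels; for replicate 1 of each group all 35976 and 36032 values equalled the scanner's normalized intensity within 0.0001. Gene names came from the platform annotation; 83 of 83 member probes were found in the RefSeq table (GRCm38.p6) and 68 had the scanner's accession.

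Control spots (1260) were left out. Values below the 5th percentile of positive values (0.163) were raised to it, log2 was taken, and limma 3.58.1 (R 4.3.3, eBayes with an intensity trend) was fitted to 34847 gene probes with Benjamini-Hochberg adjustment; with 3 arrays per group, their number limits the precision. The scripts were tested on simulated data. Probes were counted as not overlapping over 34204 gene probes with 6 values. A lower bound on a fold set the dim group, array by array, at the least signal that passed background. Slide and scan could not be tested as batches, since scanner headers were used for 1 array per group. The members, lists, tests and alternatives were chosen with earlier results of these data known. Named in full were member probes without overlap that were above background on 3 arrays of a group, the 8 of smallest p in each direction among those above background on at least 3 arrays, a set of cadherins of brain and other tissues, and from each partner list the 2 of smallest p with Ctnnb1, Ctnna1, Ctnna2 and Ctnnd1. Other genes named (Cdh3, Dsg2, Pcdh12, Pcdha12, Dchs1, Dvl2, Fzd3, Adam10 and Ctcf among them) were chosen after their values were seen. Alternatives were quantile normalization, other floors, leaving out dim probes, no trend, a robust trend, array weights, the replicate block, leaving out arrays, other background limits and 1 probe per gene.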

Additional observations from a re-analysis of the deposited data

How the results depend on the processing

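Over the whole array, where 0 probes passed, array weights gave 474, a robust trend 3 and quantile normalization 1. Between 0 and 1571 passed when arrays were left out: 1 without anti-miR-335 replicate 1, 1571 with both replicate 1 arrays removed and 1100 with control replicate 1 removed. Of the 83 cadherin and protocadherin probes, 3 passed with array weights (Pcdhb2, Celsr3 and probe 1 of Pcdh11x), and 0 to 6 with arrays left out: 6 without control replicate 1 and 3 with both replicate 1 arrays removed (Pcdhb2, Celsr1 and probe 1 of Pcdh11x). The count at an uncorrected p under 0.05 was 10 with all arrays, 20 with array weights, and 5 to 27 with arrays left out (25 with control replicate 1 removed, 27 with both replicate 1 arrays removed and 5 with both replicate 2 arrays removed). Over the whole array, 1710 of 34847 probes were higher and 1452 lower at that level with all arrays. With control replicate 1 removed, 4153 of 34654 were higher and 2220 lower, beside 19 and 6 of the 83 members. The rise was thus not particular to the members. Partner lists gave 3 called probes with array weights and 0 to 7 with arrays left out (7 with control replicate 1 removed and 7 with its anti-miR-335 counterpart removed too). The median log2 difference of the members was 0.15 with dim probes left out and 0.15 with 1 probe per gene, against 0.05. Over all gene probes above background on at least 3 arrays, the set left without dim probes, it was 0.03. With array weights, Cdh4 changed sign to -0.075 and probe 2 of Pcdh1 to 0.048. With arrays left out, signs changed for Cdh4 (-0.16 to 0.22), Fat3 probe 1 (-0.087 to 0.21) and probe 2 (-0.55 to 0.082), Fat4 (-0.12 to 0.69), Pcdh1 probe 1 (-0.023 to 0.14) and probe 2 (-0.28 to 0.081), Pcdh15 probe 2 (-0.81 to 0.18), Pcdh7 (-0.048 to 0.49) and Pcdh9 probe 2 (-0.16 to 0.076). The fitted value of Cdh11, whose controls were not above background, ranged from 0.54 to 1.52. The cause of these changes was not tested. Of the 33 named probes above background on at least 3 arrays, all kept their direction and side of the threshold under the other floors, quantile normalization, no trend, a robust trend and the replicate block. The trend settings and the block cannot change these log2 differences, and a floor changes only values below it. A kept direction there is no check, and 0 members passed under any of these settings. With the replicate number as a block, 0 probes passed and 8 members had an uncorrected p under 0.05; same-numbered arrays did not deviate together (correlations -0.22, -0.04 and -0.15 over 21356 probes), so the numbers were not taken as pairs. In the replicate 1 pair, normexp on the scanner signals moved 5 of the 33 by more than 1 moderated SD. Counts above background stayed within 1.5 times the main count with limits of 2 and 5 MAD. Members near background limit what can be said of their level.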
